A study of Mus musculus with 6 samples.

Results

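The genes described here were 39 mouse genes of the interferon response, out of 53801 genes counted in each library. They were taken from a list of symbols with no threshold on measured values, though the list was drawn up with earlier results of these data known, and fall into 5 roles: 4 RNA sensors and their adaptor, 5 signalling factors, 18 effectors, 6 genes of the ISG15 system, TRIM ligases and PARPs, and 6 genes of antigen presentation. All 39 matched a row of the count tables. A filter on low counts kept 33 of them for testing and left out Irf7, Ifit1, Oas1a, Bst2, Isg15 and Usp18, whose raw counts are given below with those of the other low genes.

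RNA was sequenced from neural progenitor cells (NPCs), dividing cells of the neural lineage grown from mouse embryonic stem cells of the strain cross BL/6J x CAST-EiJ. In all groups, the untreated one included, SPEN was fused to a degron, so that adding auxin, a plant hormone, sends the fusion protein to the proteasome. The SPEN protein represses transcription and binds Xist RNA. Cells of subclones 30 and 31, kept in 10 ng/ml of both growth factors EGF and FGF, received no auxin or 500 uM auxin for 24 h or 48 h, which gives 6 libraries in 3 groups with n = 2. Each subclone is 1 clone, and the labels do not say whether the libraries of a subclone came from separate cultures, so p-values measure the spread between these samples. Auxin-treated cells without the degron were not analysed here, so auxin itself and loss of SPEN cannot be told apart.

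Total counts ran from 24603816 (untreated, clone 30) to 43008978 (24 h, clone 31), where 3 counts correspond to 0.122 and 0.0698 CPM, the counts scaled to library size. Spen RNA, which does not report on the tagged protein, had a level of 92.4 and 116 CPM in untreated cells, then 174 and 218, and after 48 h 199.7 and 259. Of the neural progenitor markers, Nes, Sox2, Sox9, Pax6, Vim, Fabp7 and Slc1a3 were expressed, with a summed level of 4231 to 6006 CPM, while Sox1 had at most 2 counts in a library. Of 8 microglia and macrophage markers, Aif1, Tyrobp, C1qa and Trem2 had 0 counts in every library and the sum of all 8 was 0.0474 to 0.150 CPM. The blood markers Cd3e and Hbb-bs had 0 counts in every library too. Of 7 fibroblast and mesenchymal markers, Col3a1, Dcn and Lum separated the subclones, at 22.7 to 35.7 CPM in clone 31 against 0.323 to 1.28 CPM in clone 30. The collagen I genes did not. Col1a1 had 42, 55 and 97 counts in clone 30 (untreated, 24 h, 48 h) and 61, 56 and 72 in clone 31, and Col1a2 had 0 to 2 counts. Pairs of values below are for clone 30 and then clone 31.

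In the interferon response, RNA sensors in the cytoplasm such as RIG-I (Ddx58) and MDA5 (Ifih1) bind viral or other double-stranded RNA and signal through MAVS to the factors IRF3 and IRF7, which switch on the interferon genes. Secreted type I interferon binds its receptor, and the kinases JAK1 and TYK2 then activate STAT factors such as STAT2, which with IRF9 acts at the interferon-stimulated response element (ISRE). Interferon gamma acts through a different element, the gamma-activated site (GAS). The target genes encode proteins that block viral replication and that load peptides on MHC class I molecules.

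Promoter sequences of the members are shown because the ISRE and the GAS are the elements through which these genes are known to be induced. RefSeq promoters of build GRCm38.p6, each a window of 300 bases around an annotated start, matched 32 of the 39 members. The members without an entry were Dhx58, Ifi27, Mx1, Mx2, Usp18, Parp9 and Parp14. The ISRE core searched was GAAA, any 2 bases and GAAA, and the GAS core was TTC, any 3 bases and GAA, on both strands, and matches were allowed to overlap each other. An ISRE core lay in the window of 14 of the 32 members (43.8%) and of 3.99% of the 27025 genes of the table, or 3.44% of its 32851 promoters. A GAS core lay in 10 of the 32 (31.3%) and in 9.55% of all genes, or 8.30% of promoters. The 14 with an ISRE core were B2m, Bst2, Ddx58, Eif2ak2, Ifih1, Ifit1, Ifit3, Ifitm2, Ifitm3, Isg15, Oas1a, Rsad2, Stat2 and Trim21. Those with a GAS core were Adar, Bst2, Eif2ak2, Ifi35, Ifit2, Ifitm3, Irf1, Isg20, Oas1a and Psmb8, and in Bst2 and Ifitm3 a GAS core overlapped an ISRE core. A match is a stretch of letters and not a measured binding site.

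Printed in full are the windows of the 3 members that rose at 48 h (below) and hold a match: Ddx58 (chr4:40239776-40240075, minus strand), Ifih1 (chr2:62646206-62646505, minus strand) and Psmb8 (chr17:34197945-34198244, plus strand). Each runs 5′ to 3′ along the gene, and the capitals mark the ISRE core in Ddx58 and Ifih1 and the GAS core in Psmb8. In Ddx58 the core is read on the opposite strand, at bases 253 to 262 of the window. In Ifih1 it is at bases 283 to 292, and in Psmb8 at bases 154 to 162. Of the other members that rose, Ifi27, Mx1, Mx2 and Parp14 had no entry and Oasl2 had no match. An ISRE core lay in 2 of the 4 members with an entry that rose, and in 8 of the 23 tested members with an entry that were not called. For the GAS core it was 1 of the 4 and 7 of the 23. Matches were thus also found in members that were not called, and 4 members are too few to compare the shares.
Ddx58: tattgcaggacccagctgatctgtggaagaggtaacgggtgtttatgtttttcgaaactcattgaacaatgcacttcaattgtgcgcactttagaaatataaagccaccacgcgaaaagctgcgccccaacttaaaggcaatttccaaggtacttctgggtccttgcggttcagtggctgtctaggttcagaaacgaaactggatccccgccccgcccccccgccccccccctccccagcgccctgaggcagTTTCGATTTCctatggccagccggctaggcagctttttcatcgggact
Ifih1: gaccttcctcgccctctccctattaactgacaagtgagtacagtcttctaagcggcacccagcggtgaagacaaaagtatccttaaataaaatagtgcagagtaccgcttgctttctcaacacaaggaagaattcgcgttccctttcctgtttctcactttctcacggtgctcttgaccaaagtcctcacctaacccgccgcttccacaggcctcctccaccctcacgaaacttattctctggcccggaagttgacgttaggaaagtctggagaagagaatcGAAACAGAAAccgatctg
Psmb8: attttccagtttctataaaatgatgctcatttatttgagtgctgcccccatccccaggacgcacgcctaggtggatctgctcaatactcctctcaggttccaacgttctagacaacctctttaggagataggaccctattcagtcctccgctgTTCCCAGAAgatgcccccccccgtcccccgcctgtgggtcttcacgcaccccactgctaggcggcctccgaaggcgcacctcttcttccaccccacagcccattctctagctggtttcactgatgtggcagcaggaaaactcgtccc

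More than 1 ISRE core lay in the windows of Bst2, Ifit1, Ifit3, Ifitm3, Isg15, Oas1a and Trim21. Shown for comparison are 3 such stretches from classical interferon targets that were low in these cells, picked after their counts were seen. They are Isg15 (chr4:156200870-156200901, minus strand) with 3 overlapping cores, and Ifit1 (chr19:34640780-34640818, plus strand) and Ifit3 (chr19:34583368-34583421, plus strand) with 2 each, read on the opposite strand. Capitals mark the cores.
Isg15: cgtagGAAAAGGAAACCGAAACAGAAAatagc
Ifit1: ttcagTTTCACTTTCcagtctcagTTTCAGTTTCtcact
Ifit3: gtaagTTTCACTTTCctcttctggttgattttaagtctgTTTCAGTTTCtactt

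Levels of the members per length of exon, as CPM per kb, spanned the whole range from near 0 to over 100. The highest in untreated cells were Ifitm3 (109), an antiviral membrane protein of the endosome, Ifitm2 (74.4), its close relative, and B2m (70.1), the invariant chain of MHC class I. A gap separated these 3 from Mavs (15.9), Irf3 (14.6) and Eif2ak2 (11.2), the kinase PKR that is activated by double-stranded RNA. Next came Tap1 (7.24), a subunit of the peptide transporter, Adar (7.11), which edits double-stranded RNA, Mx2 (5.59) and Stat2 (4.71). Ddx58 (0.834), Ifih1 (0.357) and Psmb8 (0.354) were far lower, and Oasl2 was at 0.00511. Per length, the adaptor Mavs and the factor Irf3 stood above the sensors Ddx58 and Ifih1 in untreated cells.

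**Figure D1:**
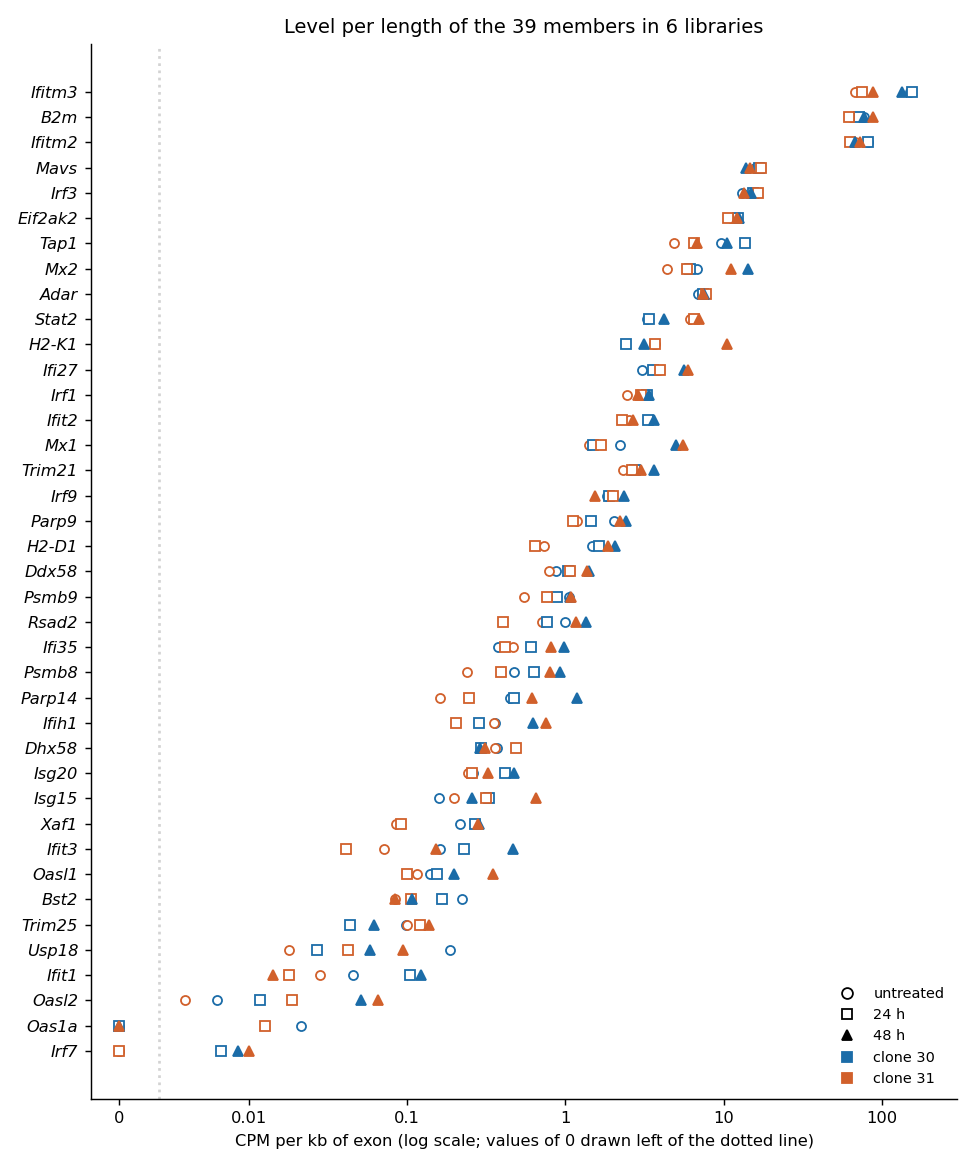
Level of each of the 39 members in the 6 libraries, as CPM per kb of exon on a log scale, with shapes for the time in auxin, colours for the subclone and values of 0 drawn left of the dotted line. Ifitm3, B2m and Ifitm2 stand apart at the top, and Irf7, Oas1a and Oasl2 at the bottom.

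Many of the classical interferon-stimulated genes were close to silent, and 11 members had under 50 counts in every library. Irf7, the factor that amplifies interferon production, had 0 and 0 counts untreated, then 1 and 0 at 24 h and 1 and 1 at 48 h. Oas1a, an enzyme that makes the 2-5A messenger, had 1 and 0 counts, then 0 and 1, then 0 and 0. Both stayed at or under 3 counts in all libraries, so no fold is given.

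Isg15, the ubiquitin-like modifier, had 3 and 6 counts untreated, then 10 and 10 at 24 h and 6 and 13 at 48 h. Usp18, which removes ISG15 from proteins, had 13 and 2, then 3 and 5, then 5 and 7 counts. Bst2 (tetherin), which holds budding virus on the cell, had 5 and 3, then 6 and 4, then 3 and 2. None of these 3 genes passed the filter, and for Isg15 the ratio of normalised counts at 48 h to untreated was 2.38 (19 counts against 9, 95% exact interval 1.03 to 5.98, which covers counting error only).

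Ifit1, which binds foreign RNA caps, had 3 and 3 counts untreated, then 11 and 2 at 24 h and 10 and 1 at 48 h, with every library of clone 30 at or above those of clone 31. Its neighbour Ifit3 had 7 and 5, then 16 and 3, then 25 and 7 counts. The ratio for Ifit3 at 48 h to untreated was 3.01 (32 counts against 12, interval 1.51 to 6.42). Ifit3 has a near-identical copy, Ifit3b, and counts of the pair are uncertain where reads cannot be assigned.

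The 2-5A synthetase-like genes Oasl1 and Oasl2 lie 11.0 kb apart on chromosome 5. Oasl1 had 9 and 12 counts untreated, then 16 and 11 at 24 h and 16 and 24 at 48 h, a ratio of 2.15 at 48 h (40 counts against 21, interval 1.24 to 3.84). Oasl2 had 1 and 1, then 3 and 5, then 10 and 11 counts. Isg20, an RNA exonuclease, had 12 and 18, then 31 and 20, then 27 and 16 counts, and Trim25, a ubiquitin ligase that acts on RIG-I, had 14 and 23, then 10 and 29, then 11 and 21. In CPM, both 48 h libraries of Oasl1 and of Oasl2 lay above their other 4, and those of Isg20 and Trim25 did not.

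After 24 h of auxin no member passed the test, and the fitted differences were small for most. With edgeR's quasi-likelihood test on treatment group, 0 of 33 members and 0.0% of the 16007 genes tested were called at an adjusted p under 0.05, and the same was found with the subclone as a block. Of the members, 0 had an unadjusted p under 0.05 on treatment group alone (240 of all genes) and 1 with the block (988 of all genes). DESeq2 called 0 members at 24 h with or without the block. The median log2 change of the 33 was 0.09, against 0.01 over all genes tested.

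Members whose 24 h libraries both lay above both untreated ones were Adar, Ddx58, Mavs, Oasl2 and Trim21 (5 of 33, against 13.0% of all genes), and only Ifih1 lay below (1 of 33, against 12.4%). The antigen transporter gene Tap1 had 1318 and 1055 counts untreated, then 2996 and 1509 at 24 h and 1775 and 981 at 48 h. In CPM it went from 52.9 and 26.4 to 74.9 and 35.8 at 24 h, higher within both subclones although the groups overlapped. Its log2 change at 24 h with the block was 0.47 ± 0.13 (SE), with an edgeR adjusted p of 0.713. Fits on fewer libraries differed, and the share of all genes called in them is not given here. Tap1 was called when the block was fitted on the 4 libraries of the 2 groups alone, or without either 48 h library.

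After 48 h, a subset of the members was higher in both subclones: the RNA sensors Ddx58 and Ifih1, the antiviral effectors Mx1, Mx2, Oasl2 and Ifi27, the ADP-ribosyltransferase Parp14 and the immunoproteasome subunit Psmb8. With the subclone as a block, edgeR called 8 of the 33 tested members higher (24.2%, against 8.35% of all genes tested) and 0 lower (against 9.08%). Oasl2 passed the filter only through its 48 h libraries, where it was high, so its call is no support for a rise. At a minimum of 1 CPM in 2 libraries, where Oasl2 was not tested, the block called 7 members (share of all genes not given here). On treatment group alone edgeR called 0 members and 0.0% of all genes, where 8 members and 3311 of all genes had an unadjusted p under 0.05. Libraries of the same subclone deviated together from their group means, and "rose" and "fell" below are said of the fit with the block. DESeq2 called 5 members without the block (Ddx58, Ifi27, Ifih1, Mx1 and Mx2, against 5.08% of genes higher) and 7 with it (against 11.5%), the 8 above without Oasl2. In these bulk samples, a change in the number of cells of a type and a change in RNA per cell cannot be told apart.

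The calls at 48 h rested on few libraries. Counts from fits on fewer libraries, here and below, are given without the share of all genes called. They describe how the calls moved with the libraries and are not a result about the members. Leaving out clone 31 untreated, the blocked edgeR fit called 0 members. Leaving out clone 30 untreated, it called 4 (Mx1, Mx2, Parp14 and Psmb8), and leaving out either 24 h library, 3 (Mx1, Mx2 and Parp14). The number was 18 when clone 30 at 48 h was left out, and 0 in the 4 libraries of the 2 groups alone. The median log2 change of the 33 members was 0.58, against 0.02 over all genes, with 29 of 33 above 0. Within clone 30 it was 0.36 with 27 of 33 above 0, against 50.1% of all genes. Within clone 31 it was 0.60 with 29 of 33 above 0, against 51.4%. The CPM of the groups did not overlap for 20 of the 33 in the higher direction (against 25.7% of all genes) and for Dhx58 and Mavs in the lower (2 of 33, against 25.7%).

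**Figure D2:**
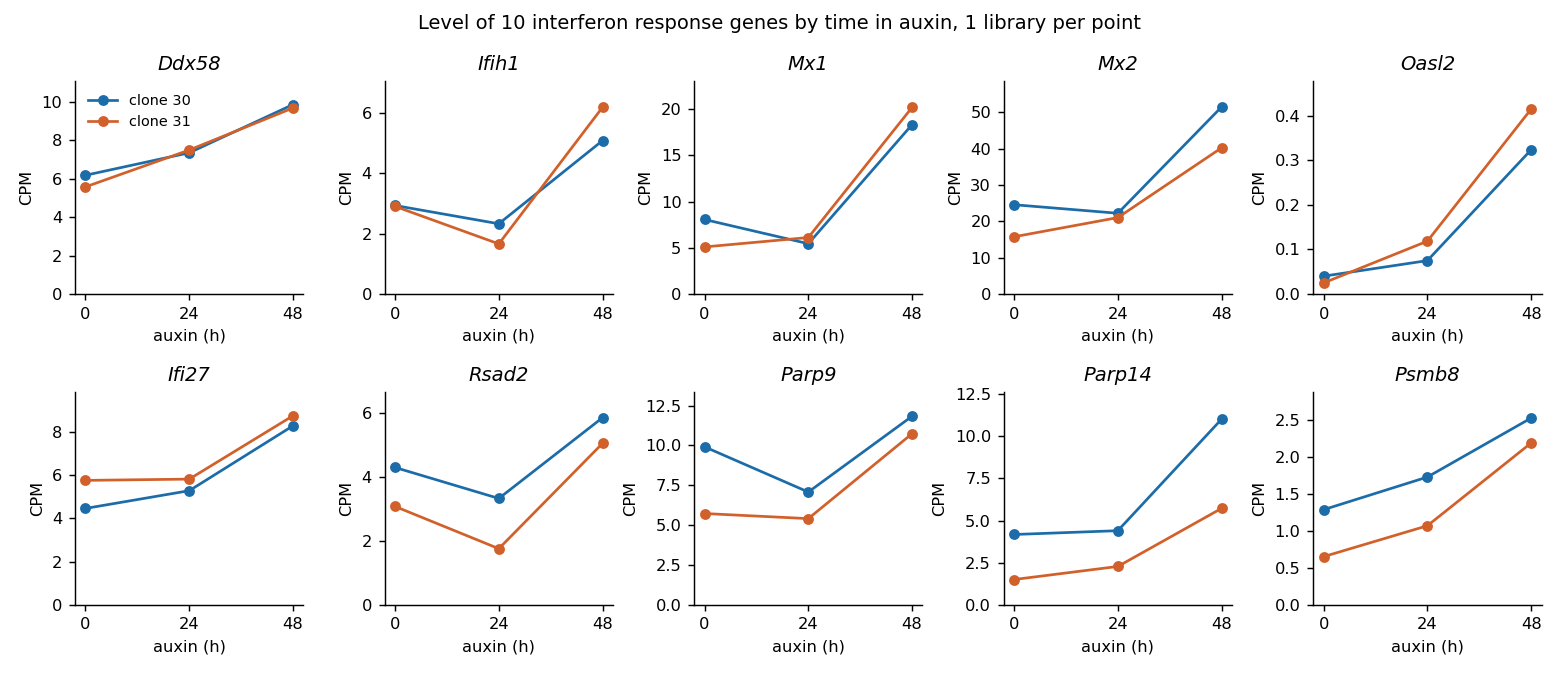
CPM of 10 members in untreated cells (0 h) and after 24 h and 48 h of auxin, with 1 library per point and a line for each subclone. In all 10 both 48 h libraries lie above both 24 h libraries, and both 24 h libraries lie above both untreated ones for Ddx58 and Oasl2 alone.

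Among the RNA sensors and their adaptor, 2 of 4 rose and 0 fell. Ddx58 had 154 and 223 counts untreated, then 294 and 316 at 24 h and 305 and 257 at 48 h, or 6.18 and 5.58, then 7.35 and 7.49, then 9.86 and 9.68 CPM. Its levels were ordered by time in both subclones with no overlap between groups, and it rose at 48 h by 0.74 ± 0.15 (log2 ± SE, 1.67-fold, edgeR adjusted p = 0.032). Ifih1 had 73 and 116 counts, then 93 and 70, then 157 and 164, or 2.93 and 2.90, then 2.33 and 1.66, then 5.08 and 6.18 CPM. Lowest at 24 h and highest at 48 h, it rose by 0.95 ± 0.24 (1.93-fold, adjusted p = 0.048).

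Dhx58 (LGP2), a related helicase without a signalling domain, had 27 to 67 counts and a log2 difference of -0.27 ± 0.31. Mavs, the mitochondrial adaptor, was at 53.0 and 53.7 CPM untreated (1320 and 2147 counts), 56.0 and 57.2 at 24 h (2241 and 2412), and 46.4 and 48.9 at 48 h (1434 and 1299). Both 48 h libraries of Mavs were the lowest of the 6, with a log2 difference of -0.16 ± 0.09 that was not called (adjusted p = 0.237).

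None of the 4 signalling factors tested was called at 48 h, and their changes ran from -0.04 to 0.27. Irf3, the factor activated by MAVS, had 1112 and 2233 counts untreated, then 2121 and 2398 at 24 h and 1579 and 1236 at 48 h, or 44.6 and 55.8, then 53.0 and 56.9, then 51.0 and 46.6 CPM. The 48 h level of Irf3 lay within the untreated range. Stat2, Irf9 and Irf1, which form or follow the interferon-activated complexes, had values of 0.27 ± 0.11, 0.04 ± 0.21 and 0.18 ± 0.13, and Stat2 had an adjusted p of 0.137.

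Of the 15 effectors tested, 4 rose and 0 fell. Mx1 and Mx2 encode dynamin-like GTPases that block incoming virus and lie 72.4 kb apart on chromosome 16 (Mx1 at 97447035 to 97462907, Mx2 at 97535308 to 97560900, GRCm38). Mx1 had 201 and 204 counts untreated, then 218 and 258 at 24 h and 567 and 536 at 48 h, or 8.07 and 5.10, then 5.45 and 6.12, then 18.3 and 20.2 CPM. Both 48 h libraries lay far above the other 4, and Mx1 rose by 1.57 ± 0.24 (2.97-fold, edgeR adjusted p = 0.0241). Mx2 had 613 and 631 counts, then 890 and 888, then 1594 and 1069, or 24.6 and 15.8, then 22.3 and 21.1, then 51.5 and 40.3 CPM. It rose by 1.20 ± 0.15 (2.30-fold, adjusted p = 0.0238). The 2 genes are similar in sequence, and reads that fit both could be split between them.

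Oasl2 was at 0.0401 and 0.0250 CPM untreated, then 0.0750 and 0.119 at 24 h and 0.323 and 0.414 at 48 h, so its untreated level lay below the floor of 3 counts. The fitted rise of 3.47 ± 0.64 (adjusted p = 0.0291) depends on the prior count added to so few reads. Only the 48 h libraries carried Oasl2 past the filter, so the call is no independent support for a rise. By the counts themselves, 21 at 48 h against 2 untreated, the ratio was 11.9 with a counting interval of 2.90 to 104. Ifi27, a small mitochondrial protein induced by type I interferon, had 111 and 230 counts, then 211 and 245, then 256 and 232, or 4.45 and 5.75, then 5.28 and 5.81, then 8.28 and 8.74 CPM. It rose by 0.74 ± 0.16 (1.67-fold, adjusted p = 0.0367), with the 24 h libraries near the untreated ones.

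Other effectors were not called at 48 h. Ifi35, which binds NMI, had 16 to 52 counts and a log2 difference of 1.05 ± 0.31 (adjusted p = 0.0699), and Xaf1, a pro-apoptotic factor, had 16 to 50 counts and 1.03 ± 0.45 (0.158). Rsad2 (viperin), which makes a chain-terminating nucleotide, had a log2 difference of 0.58 ± 0.23 (0.124) and is taken up again with the 24 h comparison. Adar, Eif2ak2, Ifitm2, Ifitm3 and Ifit2 had log2 differences close to 0. Adar had 1401 and 2368 counts, then 2419 and 2662, then 1881 and 1599, or 56.2 and 59.2, then 60.5 and 63.1, then 60.8 and 60.2 CPM, a log2 difference of 0.07 ± 0.09. The difference was 0.13 ± 0.10 for Eif2ak2 (54.3 to 63.7 CPM), -0.07 ± 0.14 for Ifitm2 (41.4 to 53.8 CPM), 0.10 ± 0.15 for Ifitm3 and 0.08 ± 0.13 for Ifit2. In Ifitm2, 40.9% of the exon length is shared with a gene model on the same strand, so its level may be understated.

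In the ISG15 system, TRIM ligases and PARPs, 1 of the 4 genes tested rose and 0 fell. Parp14, a macrodomain ADP-ribosyltransferase, had 104 and 60 counts untreated, then 176 and 96 at 24 h and 341 and 152 at 48 h, or 4.17 and 1.50, then 4.40 and 2.28, then 11.0 and 5.73 CPM. The level was higher in clone 30 than in clone 31 at each time and highest at 48 h in both. Parp14 rose by 1.64 ± 0.21 (3.12-fold, edgeR adjusted p = 0.0238). On treatment group alone its adjusted p was 0.25, the highest of the 8, where the others had 0.139 to 0.202.

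Parp9, which works with the ligase DTX3L, had 247 and 229 counts, then 283 and 228, then 366 and 285, or 9.91 and 5.73, then 7.08 and 5.41, then 11.8 and 10.7 CPM. Its difference from untreated was 0.58 ± 0.20, with an adjusted p of 0.0915. Trim21, an antibody receptor and ubiquitin ligase in the cytoplasm, had 237 and 341 counts, then 406 and 415, then 414 and 297, or 9.51 and 8.53, then 10.2 and 9.84, then 13.4 and 11.2 CPM. Its groups were ordered by time without overlap, with a log2 difference of 0.44 ± 0.14 that missed the threshold (adjusted p = 0.0753).

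Of the 6 antigen presentation genes, 1 rose and 0 fell. Psmb8, a catalytic subunit of the immunoproteasome, had 32 and 26 counts untreated, then 69 and 45 at 24 h and 78 and 58 at 48 h, or 1.28 and 0.650, then 1.73 and 1.07, then 2.52 and 2.18 CPM. Each subclone was higher at 24 h and higher again at 48 h, and Psmb8 rose by 1.34 ± 0.29 (2.54-fold, edgeR adjusted p = 0.0348). Its neighbours on chromosome 17, Tap1 and Psmb9, had log2 differences of 0.30 ± 0.13 and 0.48 ± 0.28 and were not called (adjusted p = 0.156 and 0.262). Tap1 ends 0.496 kb before Psmb8 begins and was higher per length in untreated cells (7.24 against 0.354 CPM per kb).

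B2m had 1639 and 2188 counts, then 2455 and 2256, then 2038 and 1999, or 65.8 and 54.7, then 61.4 and 53.5, then 65.9 and 75.3 CPM, a log2 difference of 0.24 ± 0.13. H2-K1 and H2-D1 encode MHC class I heavy chains. H2-K1 had 235 and 386 counts, then 250 and 406, then 253 and 725, so a single library, clone 31 at 48 h, stood at 27.3 CPM against 6.25 to 9.65 in the other 5. Within clones 30 and 31 its log2 change at 48 h was -0.21 and 1.50. H2-D1 was at 3.81 and 1.88, then 4.20 and 1.66, then 5.30 and 4.82 CPM, a log2 difference of 0.93 ± 0.32 that was not called (adjusted p = 0.0949). Class I genes are similar to each other and differ between mouse strains, so reads of this hybrid could be lost or misassigned.

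**Figure D3:**
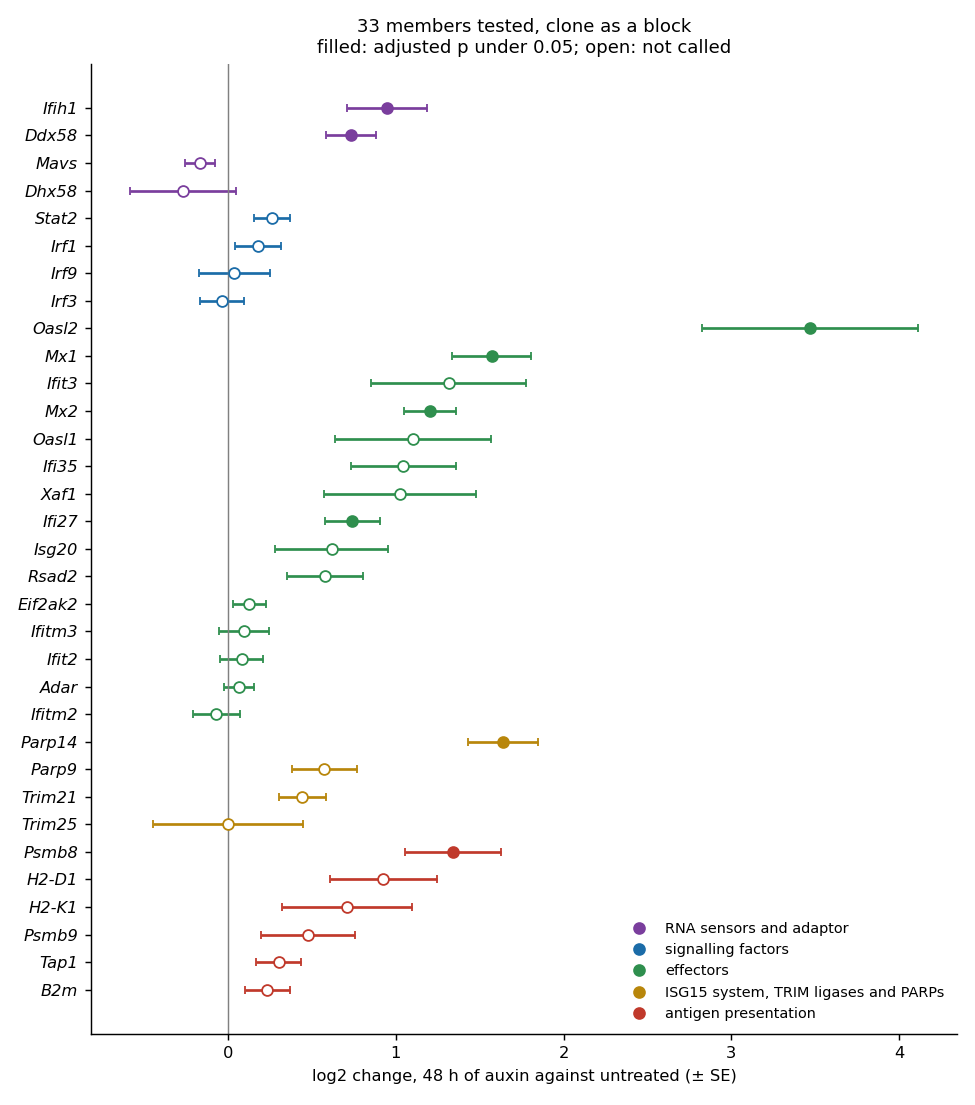
Log2 change of the 33 tested members at 48 h against untreated with the subclone as a block, with bars of 1 SE, coloured by role. The 8 filled points are those called, all above 0, and the signalling factors sit between -0.04 and 0.27.

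Within the subclones the changes of the 8 called members had the same sign, and they were of like size for some genes and not for others. Ddx58 changed by 0.67 in clone 30 and 0.80 in clone 31, Mx2 by 1.07 and 1.35, and Ifi27 by 0.89 and 0.60. Mx1 changed by 1.18 and 1.98, Psmb8 by 0.96 and 1.73, Parp14 by 1.40 and 1.93, and Ifih1 by 0.79 and 1.09. In 7 of the 8 the change was larger in clone 31, and Ifi27 is the exception. With 1 library for each subclone and time, the difference between subclones in these changes was not tested.

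**Figure D4:**
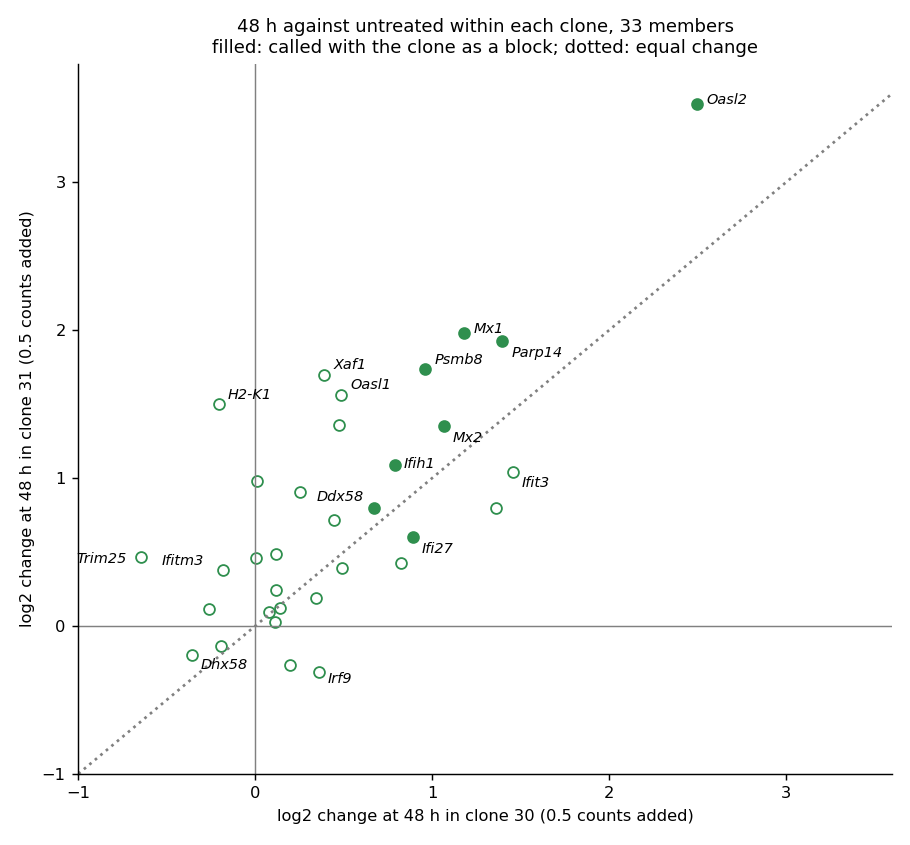
Log2 change at 48 h within clone 30 (x axis) against that within clone 31 (y axis) for the 33 tested members, with 0.5 counts added and a dotted line at equal change. The 8 called members, drawn filled, all lie above 0 on both axes, and H2-K1 lies at -0.21 and 1.50.

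Between 24 h and 48 h of auxin, 8 members rose and 0 fell with the block: Mx1, Mx2, Ifih1, Parp14, Parp9, Rsad2, Oasl2 and Ifi27. That is 24.2% of the 33, against 12.3% of all genes higher and 13.9% lower, and edgeR on treatment group alone called 0 members (7 had an unadjusted p under 0.05). DESeq2 called 3 without the block (Ifih1, Mx1 and Mx2, against 7.24% of genes higher) and 9 with it (against 13.6%), where H2-K1 and H2-D1 took the place of Oasl2. The median log2 change was 0.38, against 0.03 over all genes. The groups did not overlap for 17 of 33 in the higher direction (against 28.4% of genes) and for Irf3 and Mavs in the lower (against 27.9%). This comparison and the one against untreated share the 48 h libraries.

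Mx1 rose by 1.73 ± 0.23 (log2 ± SE, 3.33-fold, edgeR adjusted p = 0.0162), Mx2 by 1.07 ± 0.15 (2.10-fold, 0.0162) and Parp14 by 1.33 ± 0.20 (2.51-fold, 0.0164). Ifih1 rose by 1.50 ± 0.24 (2.83-fold, 0.017), from a 24 h level below the untreated one. Oasl2 rose by 1.89 ± 0.48 (0.0385), from 8 counts to 21 in all, and Ifi27 by 0.62 ± 0.16 (1.54-fold, 0.0397). Here too Oasl2 was tested only because its 48 h libraries passed the filter, so its call is no support for a rise. Rsad2 had 107 and 123 counts untreated, then 133 and 74 at 24 h and 181 and 134 at 48 h, or 4.29 and 3.08, then 3.33 and 1.75, then 5.85 and 5.05 CPM. Its 24 h level was the lowest of the 3 times in both subclones, and it rose from 24 h to 48 h by 1.15 ± 0.23 (2.21-fold, 0.0224). Parp9 rose by 0.87 ± 0.19 (1.83-fold, 0.0286), also from a lower level at 24 h. Without either 24 h library the block called 0 members, and with clone 30 at 48 h left out it called 14 higher and Irf3 lower.

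The subclones themselves differed in 5 of the 31 members tested (16.1%). That is near the share of all genes called, given next for each direction. With treatment group and subclone as terms, edgeR called Stat2 higher in clone 31 (1 of 31 tested, against 7.58% of 15492 genes) and Ifit2, Ifitm3, Parp14 and Tap1 lower (4 of 31, or 12.9%, against 8.58%). Ifit3 and Oasl2 did not pass the filter of this fit. The median log2 difference of clone 31 from clone 30 was -0.16, against 0.01 over all genes. The 3 libraries of each subclone did not overlap for H2-K1, Stat2 and Trim25 in the higher direction (9.68%, against 11.8% of genes). In the lower direction they did not overlap for Ifit2, Ifitm3, Irf1 and Tap1 (12.9%, against 11.4%). Both shares were near those of all genes.

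Stat2, a factor of the complex that type I interferon activates, had 486, 796 and 766 counts in clone 30 (untreated, 24 h, 48 h) and 1452, 1629 and 1097 in clone 31. Its CPM were 19.5, 19.9 and 24.8 against 36.3, 38.6 and 41.3, a higher level of 0.86 ± 0.09 (log2 ± SE, 1.82-fold, edgeR adjusted p = 0.0044). Ifitm3 had 2553, 4200 and 2789 counts in clone 30 and 1838, 2148 and 1582 in clone 31. Its CPM were 102, 105 and 90.2 against 46.0, 50.9 and 59.6, a difference of -0.94 ± 0.12 (adjusted p = 0.0084). Stat2 and Ifitm3, called also with subclone as the only term, thus lay in opposite directions.

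Tap1 was at 52.9, 74.9 and 57.4 CPM in clone 30 against 26.4, 35.8 and 37.0 in clone 31, a difference of -0.91 ± 0.11 (edgeR adjusted p = 0.00651). Ifit2, an inhibitor of translation, had 337, 524 and 441 counts in clone 30 and 395, 378 and 279 in clone 31, or 13.5, 13.1 and 14.3 CPM against 9.88, 8.96 and 10.5. It was lower in clone 31 by -0.48 ± 0.10 (adjusted p = 0.0319). Parp14 differed by -1.10 ± 0.17 (adjusted p = 0.0128), although its 48 h level in clone 31 exceeded that of clone 30 untreated. The number called was 3 (Stat2, Ifitm3 and Tap1) without either 24 h library and 13 without either 48 h library. Of the 7 fibroblast and mesenchymal markers 6 were tested. Col3a1, Dcn, Lum and Pdgfrb were called higher in clone 31 (4 of 6, against 7.58% of genes), 0 lower, and Col1a1 and Thy1 were not called. The summed level of the 7 was 103 to 131 CPM in clone 31 and 19.8 to 32.1 CPM in clone 30. The part of these markers in the differences of the members was not tested.

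**Figure D5:**
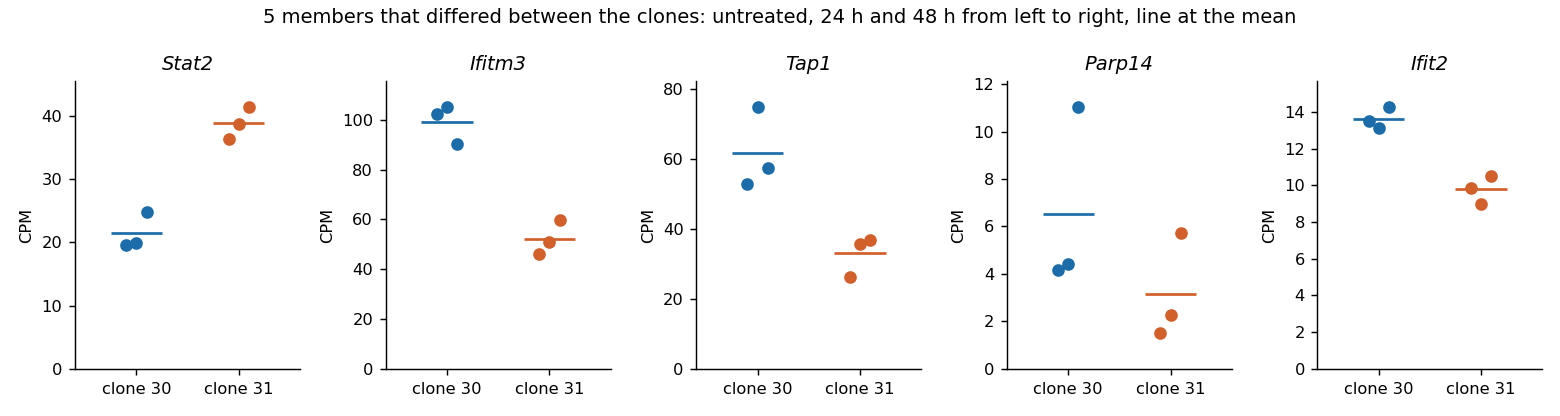
CPM of the 5 members that differed between the subclones, with the untreated, 24 h and 48 h library from left to right in each and a line at the mean. Stat2 is higher in clone 31 and the others lower, with no overlap except for Parp14.

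Other genes of the pathway were counted from a list of 83, of which 57 were tested. No transcript was seen of the 8 interferon genes on the list: Ifnb1, Ifna1, Ifna2, Ifna4, Ifne, Ifng, Ifnl2 and Ifnl3 had 0 counts in every library, which allows a level of up to 0.122 CPM in the smallest library. Interferon genes outside the list were not looked up. In Ifng, 25.95% of the exon length is shared with a gene model on the same strand, so reads there may be missed. The type I receptor subunits were expressed, Ifnar1 at 198 to 252 CPM and Ifnar2 at 28.5 to 43.1 CPM, and 0 of 5 receptor genes tested was called.

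At 48 h against untreated, 7 of the 57 rose (Dtx3l, Gbp2, Jak2, Myd88, Stat3, Tap2 and Tapbp), 2 fell (Ccl2 and Tmem173) and 48 were not called with the block, with a median of 0.12. That is 12.3% higher and 3.51% lower, against 8.35% and 9.08% of all genes. On treatment group alone 0 of the 57 were called, and the blocked fit also called 0 with clone 31 untreated left out or on the 4 libraries compared, and 3 with either 24 h library left out. Gbp2, a guanylate-binding protein of the interferon gamma response, went from 3.13 and 2.03 CPM to 4.15 and 2.56 at 24 h and 8.05 and 7.91 at 48 h, and rose by 1.67 ± 0.23 (log2 ± SE, edgeR adjusted p = 0.0239). Tapbp (tapasin), which links the peptide transporter to MHC class I, went from 61.3 and 45.2 to 84.2 and 89.9 CPM and rose by 0.73 ± 0.14 (0.0302). Jak2, a kinase of the interferon gamma receptor and of cytokine receptors, went from 68.3 and 68.3 to 115 and 163 CPM and rose by 1.01 ± 0.14 (0.0238). Stat3, a factor of the IL-6 family cytokines, went from 150 and 138 to 262 and 367 CPM and rose by 1.12 ± 0.16 (0.0241).

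Between 24 h and 48 h, 9 of the 57 rose (15.8%, against 12.3% of all genes) and 5 fell (8.77%, against 13.9%) with the block, shares near those of all genes. The block called 0 of the list with either 24 h library left out, and 24 with clone 30 at 48 h left out. Tmem173 (STING), the adaptor of DNA sensing, was at 17.1 and 9.70 CPM untreated, then 34.0 and 9.53 at 24 h and 7.79 and 1.54 at 48 h. It fell by 2.26 on the log2 scale (SE 0.35, edgeR adjusted p = 0.0164) between the 2 auxin times, and Traf3, which acts downstream of it and of MAVS, fell by 0.75 (SE 0.11, 0.0164). Jak2 and Stat3 rose by 1.06 ± 0.14 (0.0162) and 1.08 ± 0.16 (0.0164). Cgas, the DNA sensor that signals to STING, had 35 and 30 counts untreated, then 55 and 65 at 24 h and 17 and 9 at 48 h. Cgas fell by 1.73 (SE 0.39, 0.0281) between these times, while the RNA sensor Ifih1 rose.

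Between the subclones, 1 of 55 pathway genes was higher in clone 31 (H2-Q7, 1.82%, against 7.58% of all genes) and 8 were lower (14.5%, against 8.58%), namely Cxcl10, Gbp3, H2-M3, Lgals3bp, Nlrc5, Tlr3, Tmem173 and Traf3. Cxcl10, H2-M3 and Nlrc5 passed the filter of this fit only through the clone 30 libraries, where they were higher, so their calls are no support for a difference. At a minimum of 1 CPM in 2 libraries, H2-Q7 was called higher and Gbp3, Lgals3bp, Tlr3, Tmem173 and Traf3 lower (share of all genes not given here). The 9 called became 2 with subclone as the only term, 3 with either 24 h library left out, and 18 or 19 with a 48 h library left out. Gbp3 was lower by -1.48 ± 0.17 (edgeR adjusted p = 0.00588), Tlr3, an RNA sensor of the endosome, by -0.73 ± 0.10 (0.00949) and Cxcl10, an interferon-induced chemokine, by -4.08 ± 0.52 (0.00772), from 10, 30 and 10 counts in clone 30 against 1, 2 and 0 in clone 31.

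Markers of astrocytes moved with the members at 48 h. The summed level of 6 astrocyte markers was 587 and 378 CPM untreated, then 468 and 445 at 24 h and 833 and 1027 at 48 h, and 4 of the 6 rose with the block (Aldh1l1, Aldoc, Gfap and S100b). Gfap, the filament of astrocytes, rose by 1.85 ± 0.28 (edgeR adjusted p = 0.0245) from 18 and 11 counts to 84 and 25. Of 8 neural progenitor markers 7 were tested: Sox2 and Sox9 rose, 0 fell and 5 were not called, with log2 differences from -0.58 to 1.16. In that fit 8.35% of all genes were higher and 9.08% lower. Between 24 h and 48 h Pax6, Sox2 and Sox9 rose and Nes fell with the block (against 12.3% of all genes higher and 13.9% lower). The microglia and macrophage markers stayed at 0.0754 to 0.0970 CPM in sum at 48 h, against 0.100 to 0.120 untreated, so markers of those cells were near 0 in every library. The part of the astrocyte genes in the change of the members was not tested.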

How the data were processed

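Gene counts were made by the authors with featureCounts 1.6.1 on the reverse strand, with Ensembl release 92 and build GRCm38, per the file headers and the submitters' processing notes, which also name R 3.4.2 and DESeq2. The deposited values are raw counts for 53801 genes in 6 libraries. The aligner is not given in the sources used here.

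The test was the quasi-likelihood test of edgeR 4.0.16, run under R 4.3.3 (TMM scaling, genes kept by its filter on low counts, 16007 tested), on treatment group over all 6 libraries, with Benjamini-Hochberg adjustment over all genes and a threshold of 0.05. A fit with the subclone as a block was run beside it, since the titles give the subclone of each library. Deviations from the group means of same-subclone libraries correlated at 0.80 between untreated and 24 h, at 0.58 for the untreated with the 48 h libraries, and at 0.71 between the auxin times. The residual degrees of freedom were 3 and 2, so precision is limited. DESeq2 1.42.0, other scalings, other filters and leaving out each library were alternatives. The code was tested on simulated data, where the fit on treatment group alone recovered none of the changes put in, and the fit with the block recovered part of them but with a larger share of false calls than its threshold allows. CPM use TMM-scaled library sizes, and values within a subclone have 0.5 counts added.

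Members and gene lists were chosen with earlier results of these data known. Named with all values were the members called in any comparison, those under 50 counts in every library and the most abundant of each role, and up to 4 genes of each other list by smallest p. Others are named where a count is small, chosen after their values were seen. Ratios of low counts have exact 95% intervals for counting error only.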

Additional observations from a re-analysis of the deposited data

Results flagged for a closer look

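For 5 members the log2 difference had opposite signs in the subclones and the 95% counting interval of the ratio left out 1 in both. Other members with opposite signs, such as H2-K1 and Ifit1 at 48 h, did not meet this in both subclones. There was 1 library for each subclone and time, and the difference between the subclones was not tested. At 48 h against untreated, Irf3 was at 0.19 in clone 30 and -0.26 in clone 31, Irf9 at 0.36 and -0.31, Ifitm2 at -0.26 and 0.12, and Ifitm3 at -0.18 and 0.37. Usp18, at 2 to 13 counts, was at -1.61 and 2.18. At 48 h against 24 h, Irf9 was at 0.32 and -0.39, Ifitm2 at -0.27 and 0.21, and Ifitm3 at -0.22 and 0.23.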

How the results depend on the processing

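No result reversed. With treatment group alone, 0 members were called in each auxin comparison, and also with 1 library left out. With the replicate block 8 members were called at 48 h against untreated and 8 at 48 h against 24 h, also with DESeq2 size factors, upper-quartile or total-count scaling and with no filter, and 7 and 7 at a minimum of 1 CPM. With no filter, H2-D1 took the place of Oasl2 at 48 h against 24 h. Without the block and with no filter the numbers were 2 and 3, with DESeq2 5 and 3, and with DESeq2 and the block 7 and 9. The block on the 4 libraries compared called 1 at 24 h, 0 at 48 h against untreated and 9 at 48 h against 24 h. Leaving out 1 library gave 0 to 1 at 24 h, 0 to 18 at 48 h against untreated, 0 to 15 at 48 h against 24 h and 3 to 13 between subclones, where subclone as the only term gave 2. Of the pathway list, the replicate block called 9 at 48 h against untreated (9 with the other scalings and at 1 CPM, 10 with no filter, 9 with DESeq2, 0 on the 4 libraries compared) and 14 at 48 h against 24 h (13 with upper-quartile or total counts, 12 at 1 CPM, 15 with no filter, 14 with DESeq2 or on 4 libraries). Without the block, no filter gave 2 and 2, and DESeq2 6 and 9. Between subclones the list gave 14 with no filter and 2 with subclone as the only term. Leaving out 1 library gave 0 to 2 at 24 h, 0 to 17, 0 to 24 (16 with the replicate block and clone 30 untreated left out) and 3 to 19 in the same order. The share of all genes called under each of these settings is not given here, and the cause of these differences was not tested. The median of the members at 48 h against untreated was 0.34 to 0.82 under every setting run. For the 11 members under 50 counts, depth limits what could be seen.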
